A study of Mus musculus with 28 samples.

Results

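The genes described here are 37 very long protein-coding genes, each spanning over 200 kb of the mouse genome, whose nascent RNA was measured during recovery from a block of transcription elongation. They were fixed as a list of names, on the observation that genes of this length take a larger share of the reads 5 min after the block is lifted, with Exoc4 rising most. They were thus chosen by their 5-min level against steady state, which is described here and not tested. Of the 24984 genes listed, 28 of the 37 had a mean RPKM (reads scaled to the length of the gene and the total of the library) above 0.5 in at least 1 of the 3 conditions, and their values are given below. The other 9, namely Auts2, Foxp1, Prkg1, Rbms3, Dpyd, Sox5, Nbea, Mast4 and Pard3b, stayed below that limit. The member just inside the limit was Gphn, whose highest mean over a condition was 0.710 RPKM, and the one just outside was Mast4 at 0.463. The shortest member was Cobl at 228 kb, followed by Tcf12 at 268 kb. All genes of the annotation that span over 200 kb number 1012, and 374 of them were expressed (mean RPKM above 0.5 in either genotype in any condition), including these 28.

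Bru-seq labels the RNA made during a short pulse of 5-bromouridine (BrU), which is then immunopurified and sequenced. It was performed in wild-type (WT) mouse embryonic stem cells (mESCs) and in mESCs that lack Elongin A (EloA null), a factor that stimulates elongation by RNA polymerase II (Pol II). Steady-state cells were labelled for 10 min with 2 mM BrU. For recovery, cells were first held for 60 min in 1 µM flavopiridol (FP) and washed, and the same BrU dose was then given for either 5 min or 10 min. Each of the 6 groups had 2 libraries. All cells were grown with LIF and inhibitors of MEK and GSK3 on feeder cells, which were removed before labelling. The growth notes name the cells CCE28 and the labelling notes CJ7, and which line these libraries came from could not be settled. A single EloA null line is described, so genotype and cell line cannot be told apart. One steady-state library is titled EloA null while its genotype field says wild type, and its title was followed. Its Eloa level was near that of the second (1.96 and 1.89 RPKM, against 1.18 and 1.16 in WT). Nascent RNA of Eloa, the targeted gene, was higher in the libraries labelled EloA null in all 3 conditions, so it gives no check of the null label.

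Pol II that has started transcription commonly pauses close to the start site, and the kinase P-TEFb releases it into the gene body. FP inhibits P-TEFb and so holds new polymerases at the start, while those already in the gene body can travel on. A polymerase needs longer to cross a very long gene than a short one, and the introns, which make up nearly all of such a gene, are transcribed but do not reach the mature mRNA. Nascent RNA of a long gene is therefore almost wholly intronic. The members serve many functions, among them the tethering of secretory vesicles (Exoc4, Trappc9), cell polarity (Pard3, Magi1), actin nucleation (Cobl), nutrient signalling (Rptor), transcription (Tcf4, Tcf12, Rere, Atxn1) and DNA repair (Rad51b).

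The libraries held between 9857527 reads (WT, 5-min recovery) and 28547356 reads (EloA null, 10-min recovery), and the 5-min libraries were the shallowest, at up to 17272752 reads. The 28 genes had from 1564 to 198346 reads in a library, with a median of 15464.5. The coefficient of variation (SD over mean) between the 2 libraries of a group had medians over the 28 genes from 3.03% (EloA null, steady state) to 10.2% (EloA null, 10-min recovery). Counting error was not set against this spread. Markers of pluripotent cells were present in all groups (10 of 10 above 0.5 RPKM, led by Zfp42), and their summed RPKM ranged from 159 to 300 per library. The 12 markers of feeder fibroblasts summed to between 1.07 and 2.99 RPKM, of which Col1a1 alone passed a mean of 0.5, in 3 of the 6 groups. In each condition this sum was lower in both EloA null libraries than in both WT libraries. The 7 markers of neural cells summed to between 0.481 and 2.31 RPKM. Of these Tubb3 and Nes passed a mean of 0.5 in steady state, in both genotypes (Tubb3 0.620 in WT and 0.992 in EloA null), and 0 did in recovery. Those of primitive endoderm summed to between 0.158 and 0.842. The part of these other cells in the results was not tested.

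The 28 genes lie on most chromosomes, and none of the 37 on chromosome 14. Their spans ran from 228 kb (Cobl) to 932 kb (Immp2l), with a median of 470 kb. The length over which reads had been counted was worked out from the RPKM values for each of the 37, and among the 28 it covered between 93.6% (Rad51b) and 99.9% (Immp2l) of the span. Other annotated genes overlapped most of them, with a median of 2 and up to 8 (Lrba). Of these, expressed genes were found in Bcas3 (4), Vps13b (2), Dock1, Immp2l, Lpp, Lrba, Magi1, Rptor and Trappc9 (1 each). The largest was 4930511A08Rik, which covers 17.2% of Magi1 on the same strand. Insyn2a covers 11.2% of Dock1 on the opposite strand, and its RPKM was 2.88 in WT steady state against 1.80 for Dock1. The use of strand in the counting is not stated, and reads shared between such pairs cannot be told apart.

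Sequence upstream of transcript starts was available for 31 of the 37 genes, in 44 windows of 250 bases (RefSeq, GRCm38.p6). Atxn1, Auts2, Tcf4, Trappc9, Vps13b and Wwox had none. The windows of Exoc4 and Cobl are shown because these genes held the most reads of the list. That of Exoc4 lies just before a RefSeq transcript start, on the plus strand at chr6:33248878-33249127. That of Cobl is on the minus strand at chr11:12464961-12465210. Both read 5′ to 3′, with GGGCGG or its reverse complement CCGCCC, the core of a GC box, in capitals.
Exoc4: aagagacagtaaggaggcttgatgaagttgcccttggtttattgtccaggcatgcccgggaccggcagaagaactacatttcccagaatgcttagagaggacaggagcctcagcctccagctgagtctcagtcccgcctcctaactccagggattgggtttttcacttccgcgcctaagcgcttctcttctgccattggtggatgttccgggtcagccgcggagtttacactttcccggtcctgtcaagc
Cobl: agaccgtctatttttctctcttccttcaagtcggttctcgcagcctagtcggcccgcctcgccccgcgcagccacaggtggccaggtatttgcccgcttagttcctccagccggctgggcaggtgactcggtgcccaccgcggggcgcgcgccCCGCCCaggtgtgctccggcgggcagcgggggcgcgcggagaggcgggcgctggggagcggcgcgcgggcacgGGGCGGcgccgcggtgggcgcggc
The Cobl window held GGGCGG on either strand 2 times and 36 CG dinucleotides at 75.2% GC, while the Exoc4 window held 0 such motifs and 10 CG dinucleotides at 54.8% GC. Cobl has a second window, at chr11:12412141-12412390, with 0 such motifs and 0 CG dinucleotides at 43.2% GC. GGGCGG or CCGCCC was found in 22 of the 44 windows (50.0%), against 32.7% of all 32851 windows. TATAAA or TTTATA was found in 2 windows (4.55%), against 12.4% of all, and CCAAT or ATTGG in 14 (31.8%), against 33.8%. The median number of CG dinucleotides was 16 in the windows of these genes and 6 in all windows. Several windows belong to 1 gene and can overlap, so these shares are a description.

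In steady state, Cobl was by far the most transcribed of the 28 genes per length, and most of the others were near 1 RPKM. Cobl, an actin nucleator on chromosome 11 (12236676 to 12465022), had 19.8 and 21.5 RPKM in WT and 17.1 in each EloA null library. It ranked first among the 374 expressed genes over 200 kb in every group. Rptor, the scaffold of the nutrient-sensing mTOR complex, on chromosome 11 (119602905 to 119899591), followed at 4.14 and 3.95 RPKM in WT and 3.44 and 3.82 in EloA null. Exoc4, a subunit of the exocyst that tethers secretory vesicles to the plasma membrane, spans 725 kb of chromosome 6 (33249090 to 33973979) and had 3.71 and 4.17 RPKM in WT and 3.55 and 3.57 in EloA null. Rptor, Exoc4 and Thada (3.86 ± 0.107 in WT, SD, n = 2) were next to one another in this order and did not differ beyond their spread in WT. The lowest of the 28 were Tbc1d5, a GTPase-activating protein of Rab proteins, and Gphn, which makes the molybdenum cofactor, at 0.344 ± 0.0452 and 0.220 ± 0.0248 RPKM in WT (SD, n = 2). The median over the 28 was 1.29 RPKM in WT and 1.13 in EloA null. The members outside the limit were lower by far, with medians of 0.0380 and 0.0310 RPKM, and Dpyd, an enzyme of pyrimidine breakdown, had 29 to 103 reads in a library.

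**Figure D1:**
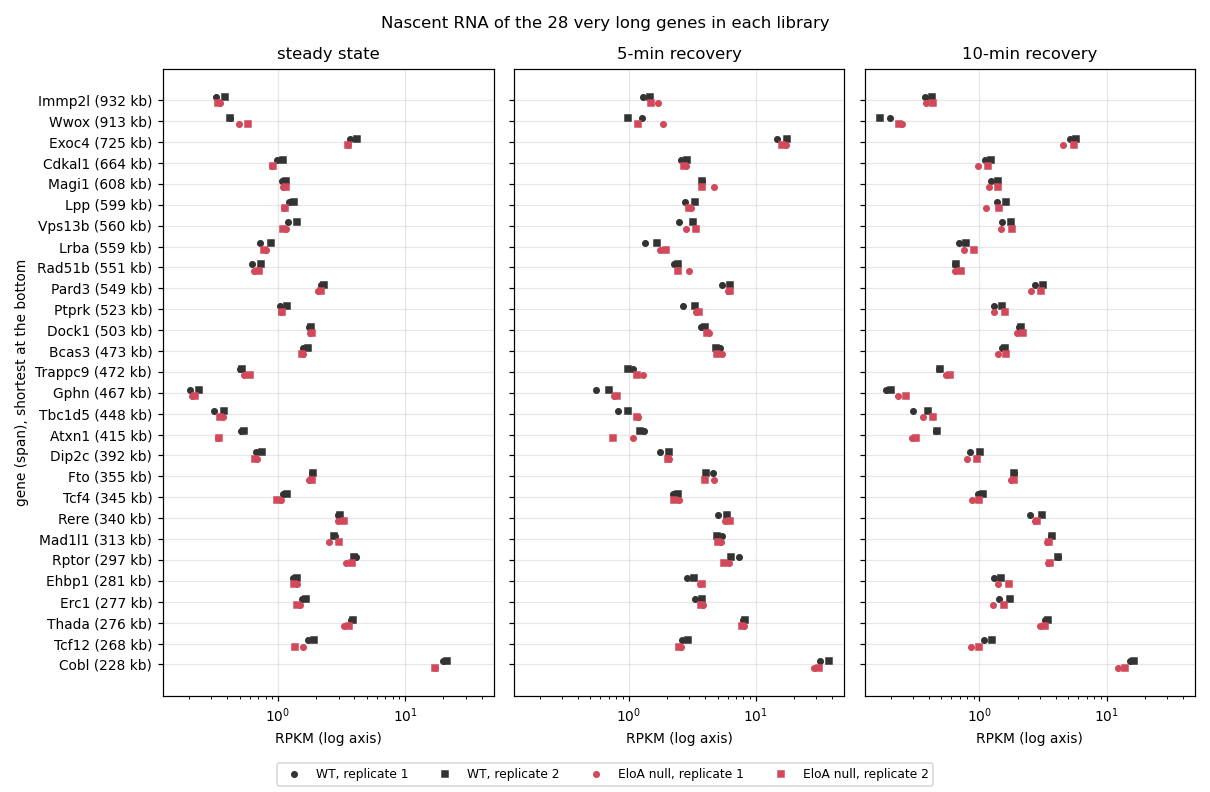
RPKM (log axis) of the 28 very long genes in each of the 12 libraries, with WT in black, EloA null in red, circles for replicate 1 and squares for replicate 2, and genes ordered by span. The points of each gene lie further right at 5-min recovery than in steady state, and those of Cobl and Exoc4 lie furthest right.

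After 5 min of recovery the 28 genes took a larger share of the reads than in steady state in both genotypes, and after 10 min the share was again near that of steady state. In WT they held 2.26% ± 0.123 of the reads in steady state, 5.50% ± 0.395 at 5-min recovery and 2.35% ± 0.157 at 10-min recovery (SD, n = 2). In EloA null the shares were 2.08% ± 0.0421, 5.65% ± 0.18 and 2.20% ± 0.222 (SD, n = 2). The 2 libraries of each group lay close together, and no 5-min library overlapped with those of the other conditions. All 1012 genes over 200 kb together held 16.3% of WT reads in steady state, 32.0% at 5 min and 14.1% at 10 min, and 16.5%, 35.0% and 14.5% in EloA null. The list thus holds a small part of the reads of all such genes. RPKM and shares of reads are relative to the library, so a larger share is not a larger amount of RNA. The pulse was shorter at 5-min recovery than in steady state, and time since FP removal and length of the pulse cannot be told apart.

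**Figure D2:**
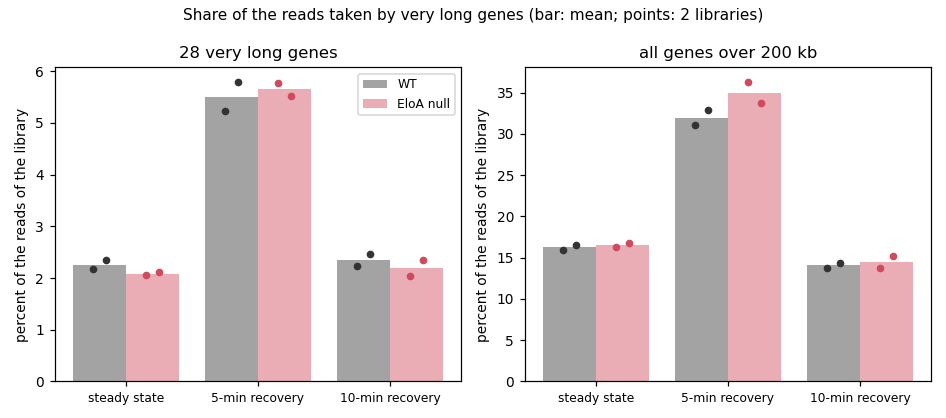
Percent of the reads of a library that fell in the 28 very long genes (left) and in all genes over 200 kb (right), by condition and genotype, with bars for the mean and points for the 2 libraries. The 5-min bars, at 5.50% (WT) and 5.65% (EloA null) on the left, stand above those of the other conditions.

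Exoc4 showed the largest ratio of 5-min recovery to steady state of the 28 genes. At 5-min recovery it had 14.7 and 17.6 RPKM in WT and 17.2 and 15.9 in EloA null, and at 10-min recovery it was 5.18 and 5.79 in WT and 4.56 and 5.58 in EloA null. The 5-min libraries were far above the others, and the genotypes overlapped. The ratio of 5-min recovery to steady state was 4.10 ± 0.535 in WT and 4.66 ± 0.253 in EloA null (SD over the 2 recovery libraries). Exoc4 alone took 0.284% of WT reads in steady state, 1.16% at 5 min and 0.395% at 10 min. Among the 374 expressed genes over 200 kb its ratio ranked at place 7 in WT and 5 in EloA null, and its level at 5 min at place 2 in both, behind Cobl.

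Immp2l, which encodes a peptidase of the inner mitochondrial membrane on chromosome 12 (41024061 to 41955588), came next. It rose from 0.325 and 0.385 RPKM in the steady-state WT libraries to 1.30 and 1.47 at 5 min, and stood at 0.372 and 0.425 at 10 min. In EloA null the values were 0.353 and 0.340, then 1.71 and 1.49, then 0.376 and 0.435. Rad51b, a DNA repair gene on chromosome 12 (79297282 to 79848260), had 0.622 and 0.737 RPKM in steady-state WT, 2.27 and 2.46 at 5 min and 0.638 and 0.650 at 10 min. In EloA null it had 0.646 and 0.714, then 2.98 and 2.45, then 0.646 and 0.719. For both genes the 5-min ratio was above 3 in each library of both genotypes, while the 10-min libraries were near those of steady state.

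The smallest 5-min ratios belonged to some of the shortest members. Tcf12, an E-protein transcription factor on chromosome 9 (71844252 to 72111893), had a ratio of 1.53 ± 0.124 in WT and 1.70 ± 0.0387 in EloA null, Rptor 1.69 ± 0.172 and 1.62 ± 0.112, and Cobl 1.69 ± 0.203 and 1.75 ± 0.0956 (SD, n = 2). Cobl stood at 32.0 and 37.9 RPKM at 5 min in WT and 28.8 and 31.2 in EloA null. For Rptor the 5-min values were 7.32 and 6.33 in WT and 6.16 and 5.58 in EloA null, and those of Tcf12 were 2.63 and 2.95 in WT and 2.56 and 2.48 in EloA null. Rptoros, an RNA of the opposite strand within Rptor that covers 4.57% of its span, had a larger ratio, from 4.38 RPKM in steady-state WT to 14.3 at 5 min.

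Across the 28 genes the 5-min ratio had a median of 2.35 in WT and 2.71 in EloA null, and it ran from 1.53 (Tcf12) to 4.10 (Exoc4) in WT and from 1.62 (Rptor) to 4.66 (Exoc4) in EloA null. All 28 were past 1.5-fold higher in both genotypes, against 15.4% of all expressed genes in WT and 14.7% in EloA null, and 0 were past 1.5-fold lower, against 51.6% and 55.8%. Since this contrast chose the list, nothing is read from that count. The 9 members of low level had ratios from 1.62 (Mast4) to 4.32 (Prkg1) in WT. The ratio of a gene in WT and in EloA null, which share no library, had a Pearson's r of 0.97 across the 28 genes on the log2 scale. The points of this correlation share libraries and are not independent.

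By function, the 5-min ratio in WT was highest for the group of mitochondria, cofactor synthesis and others, with a median of 2.97 over 4 genes (2.70 for Dip2c to 3.91 for Immp2l). It was 2.70 for genome maintenance and mitosis over 3 genes (Rad51b, Wwox and Mad1l1, a component of the spindle checkpoint), 2.50 for polarity, junctions and actin over 6 genes, and 2.29 for RNA modification over 3 genes. That last group comprises Fto, an RNA demethylase, Cdkal1, which modifies tRNA, and Thada, whose yeast homologue does so. Membrane traffic had a median of 2.21 over 7 genes (1.87 for Lrba to 4.10 for Exoc4), and the transcription factors and cofactors had 1.93 over 4 genes (1.53 for Tcf12 to 2.42 for Atxn1). Nutrient signalling was represented by Rptor alone, at 1.69. The ranges of the other groups overlapped, with 1 exception. That of mitochondria, cofactor synthesis and others lay above those of RNA modification (up to 2.60) and of the transcription factors and cofactors. Gene span was not separated from function, and the list was chosen on this ratio, so nothing is read from this order. Magi1, a scaffold of tight junctions, had the highest ratio within polarity, at 3.38 in WT.

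The ratio at 5 min is set beside gene span here as a description, within the list and outside it. Among the 28 genes, the Pearson's r of the log10 span with the log2 ratio was 0.72 in WT (Spearman's rho 0.68) and 0.72 in EloA null (rho 0.70). Among the 346 other expressed genes over 200 kb it was 0.38 (rho 0.42) and 0.40 (rho 0.47). These correlations are across genes of the same libraries. Over 600 kb, 22 of 22 genes outside the list passed the 0.5 RPKM limit at 5 min and 11 in steady state, which favours high ratios there. Since the list was chosen on this ratio, nothing is read from its correlation beside that of the other genes. Not all of the longest genes had the highest ratios. Wwox, at 913 kb, had 2.70 ± 0.455 in WT and 2.84 ± 0.911 in EloA null (SD, n = 2), below those of Exoc4 and Immp2l.

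**Figure D3:**
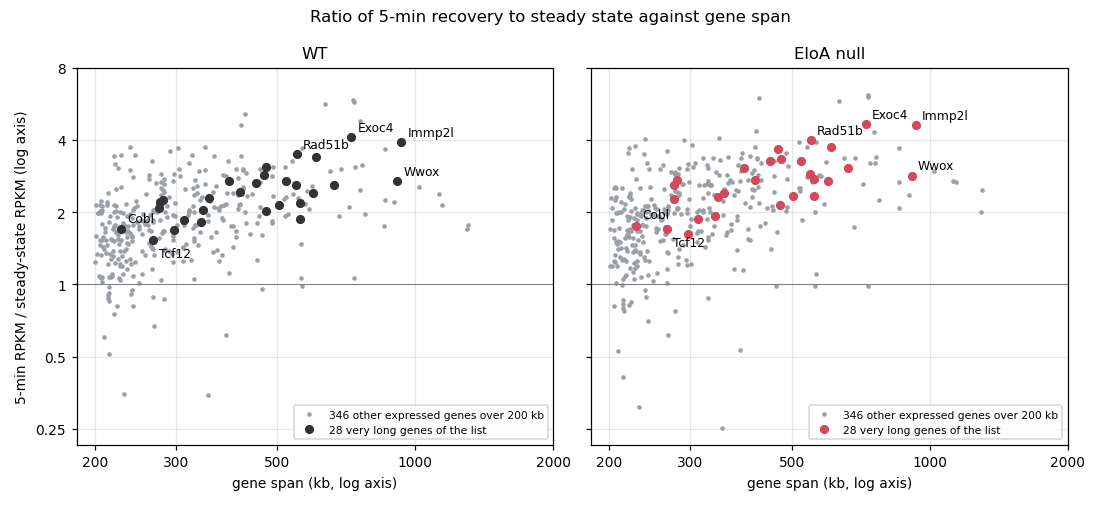
Ratio of 5-min to steady-state mean RPKM against gene span (both axes log) in WT (left) and EloA null (right), for the 28 very long genes (large points) and the 346 other expressed genes over 200 kb (grey). The large points lie between 1.53 and 4.10 in WT and between 1.62 and 4.66 in EloA null, within the grey cloud. Higher ratios go with longer spans, among genes for which the list and the 0.5 RPKM limit favoured a high 5-min level.

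Over all expressed genes, the ratio at 5 min was lowest at intermediate length. In WT its median was 0.789 for genes under 10 kb, 0.582 for 10 to 30 kb, 0.455 for 30 to 60 kb, 0.564 for 60 to 100 kb and 1.01 for 100 to 200 kb. For genes outside the list it was 1.67 at 200 to 300 kb, 2.01 at 300 to 400 kb, 2.29 at 400 to 600 kb and 2.43 over 600 kb. The members had 1.89 (6 genes), 2.05 (5 genes), 2.51 (12 genes) and 3.38 (5 genes) in the same bins. In EloA null the members had 2.01, 2.32, 2.82 and 3.75, against 1.77, 2.32, 2.53 and 2.83 outside the list. Since the list was chosen on this ratio, nothing is read from its values beside those of other genes of the same span. A ratio past 1.5-fold higher was found for 72.3% of the 346 other long genes in WT and 76.0% in EloA null. Of these 346 genes, 342 passed the 0.5 RPKM limit at 5 min and 275 in steady state. Over 600 kb, 22 of 22 passed it at 5 min and 11 in steady state. The limit thus favoured genes that are high at 5 min, most of all among the longest. The bins above 150 kb were chosen after the values were seen.

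**Figure D4:**
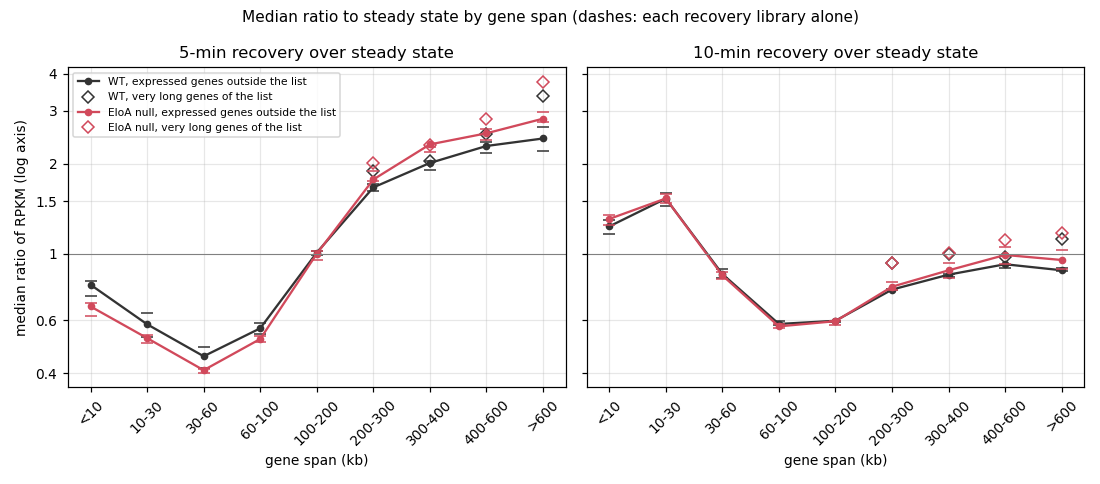
Median ratio to steady state (log axis) by bin of gene span (kb) for expressed genes outside the list (filled points, with dashes for each recovery library alone) and for the 28 very long genes (open diamonds), in WT (black) and EloA null (red). At 5 min (left) the WT medians fall to 0.455 at 30 to 60 kb and reach 2.43 over 600 kb, and at 10 min (right) those over 200 kb lie near 1 or below it.

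At 10-min recovery the 28 genes were near their steady-state level, and each was below its own level at 5 min. The ratio of 10-min recovery to steady state had a median of 1.01 in WT and 1.07 in EloA null. It was past 1.5-fold higher for 0 of the 28 genes in both genotypes, against 32.2% of all expressed genes in WT and 33.5% in EloA null, and past 1.5-fold lower for 2 genes, against 28.7% and 28.9%. For comparison, the median of the 346 other long genes was 0.810 in WT and 0.845 in EloA null, and that of genes of 10 to 30 kb was 1.53 in both. The ratio of 10-min to 5-min recovery was below 1 for all 28, from 0.160 (Wwox) to 0.706 (Mad1l1) in WT and from 0.156 to 0.671, for the same 2 genes, in EloA null.

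Wwox, an oxidoreductase gene that spans a common fragile site, on chromosome 8 (114439635 to 115352712), had the lowest ratio at 10 min. It stood at 0.417 and 0.419 RPKM in the steady-state WT libraries, 1.26 and 0.995 at 5 min and 0.198 and 0.164 at 10 min. In EloA null it had 0.497 and 0.579, then 1.87 and 1.18, then 0.244 and 0.232. All 10-min libraries of Wwox were below all steady-state libraries, and its ratio was 0.433 ± 0.0585 in WT and 0.443 ± 0.0157 in EloA null (SD, n = 2). Tcf12 was the other gene past 1.5-fold lower, at 0.639 ± 0.0639 and 0.623 ± 0.0682 (SD, n = 2), with 1.09 and 1.25 RPKM in the 10-min WT libraries and 0.851 and 0.994 in EloA null, below 1.72 and 1.94, and 1.59 and 1.37, in steady state. Cobl followed at 0.771 and 0.768, with 15.3 and 16.5 RPKM in WT and 12.2 and 14.1 in EloA null.

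The highest 10-min ratios in WT belonged to Exoc4 (1.39 ± 0.109), Mad1l1 (1.31 ± 0.0071) and Pard3 (1.31 ± 0.132; SD, n = 2), the last a cell polarity protein. Mad1l1, on chromosome 5 (140008689 to 140321608), had 2.83 and 2.77 RPKM in steady-state WT, 5.43 and 4.99 at 5 min and 3.66 and 3.69 at 10 min. In EloA null it had 2.51 and 3.02, then 5.29 and 5.03, then 3.39 and 3.54. Pard3, on chromosome 8 (127063381 to 127612286), had 2.17 and 2.32 RPKM in steady-state WT, 5.38 and 6.27 at 5 min and 2.74 and 3.16 at 10 min. In EloA null it had 2.09 and 2.17, then 6.03 and 6.24, then 2.53 and 3.06. In EloA null the highest ratio was that of Vps13b, a lipid transfer protein of the Golgi, at 1.45. In WT, 11 of the 28 genes had both 10-min libraries above both of steady state, against 43.9% of all expressed genes, and 8 had both below, against 40%. In EloA null 11 and 7 did, against 45.2% and 40.6%.

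The comparison of genotypes asks whether loss of EloA changes nascent RNA of these genes, and the rule that chose the list did not use it. The test was limma (trend) on values of log2(RPKM + 0.1), on which changes of low genes come out too small. It gave 0 of the 28 genes an adjusted p under 0.05 in any condition. It made 0 such calls among all 11347 genes tested in steady state, 8985 at 5-min and 10241 at 10-min recovery (percent called 0 in each). At an unadjusted p under 0.05 the counts were 2083, 846 and 2098 of all genes (18.4%, 9.42% and 20.5%), and 1 of 25 (Atxn1), 0 of 28 and 1 of 23 (Rptor) of the very long genes tested. Both of these were lower in EloA null, as were 4.22%, 4.87% and 5.25% of all genes at that level. The standard errors of the members ran from 0.08 to 0.26 on the log2 scale. A fold change over 1.5 in the ratio of means was met by Atxn1 alone, which was lower in EloA null in steady state. Its mean there passed the 0.5 RPKM limit through WT alone (0.525, against 0.340 in EloA null). The limit thus favoured the direction of this call and of its unadjusted p. Over all genes tested in that condition, 2.1% were past this limit lower and 7.21% higher. At 5-min and 10-min recovery 0 of the very long genes tested passed it, against 6.72% and 3.01% of all genes lower and 5.4% and 9.41% higher. Scaling moved the split of all genes past the limit, which was 818 higher and 238 lower in steady state, 485 and 604 at 5 min and 964 and 308 at 10 min. With quantile normalization it was 558 and 349, 594 and 491, and 657 and 459, and with median centring 657 and 299, 605 and 492, and 686 and 417. For the very long genes it stayed at Atxn1 alone.

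Atxn1 encodes ataxin 1, a nuclear protein that acts with transcriptional repressors, and spans 415 kb of chromosome 13 (45549755 to 45964991). Its steady-state RPKM was 0.509 and 0.540 in WT, and 0.337 and 0.343 in EloA null, from 3161 to 6107 reads. At 5 min it had 1.32 and 1.23 in WT and 1.09 and 0.759 in EloA null, and at 10 min 0.453 and 0.461 against 0.297 and 0.319. The EloA null libraries were below the WT libraries in all 3 conditions. The ratio of EloA null to WT was 0.649 in steady state, 0.727 at 5 min and 0.674 at 10 min. The log2 difference in steady state was -0.50 (SE 0.17, limma adjusted p = 0.231), and at 5 min -0.44 (SE 0.21, limma adjusted p = 0.590). With WT replicate 2 left out, the ratio in steady state was 0.668 and no longer past the limit, and without EloA null replicate 1 the 5-min ratio was 0.597 and passed it. At 10 min the mean of Atxn1 was under 0.5 RPKM and it was not tested.

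Tcf12, Cobl and Rptor were also lower in both EloA null libraries than in both WT libraries in each condition, with differences that did not pass the test. The log2 difference of Tcf12 was -0.29 (SE 0.11) in steady state, -0.14 (SE 0.15) at 5 min and -0.31 (SE 0.14) at 10 min. That of Cobl was -0.27 (SE 0.10), -0.22 (SE 0.19) and -0.28 (SE 0.11). For Rptor it was -0.15 (SE 0.10), -0.21 (SE 0.18) and -0.24 (SE 0.09), and its 10-min values were 4.18 and 4.15 RPKM in WT and 3.45 and 3.56 in EloA null. The smallest limma adjusted p of these 3 genes was 0.241, for Rptor at 10 min. Lack of overlap in the lower direction in all 3 conditions was found in 3 of the 23 members expressed in all of them, against 10.1% of all 8217 such genes, and in Atxn1, which was below 0.5 RPKM at 10 min.

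Wwox had the highest ratio of EloA null to WT in each condition, and Trappc9, Tbc1d5 and Gphn were the other genes among the 3 highest in 1 or more of them. Wwox had a log2 difference of 0.30 (SE 0.16, limma adjusted p = 0.392) in steady state and 0.38 (SE 0.26, limma adjusted p = 0.73) at 5 min, where its libraries overlapped. Without WT replicate 1 its 5-min ratio was 1.53 and without EloA null replicate 2 it was 1.66, both past the 1.5-fold limit, and without EloA null replicate 1 it was 1.04. Trappc9, a subunit of the TRAPP vesicle-tethering complex on chromosome 15 (72589620 to 73061238), was higher in both EloA null libraries in each condition. It had 0.503 and 0.524 RPKM in steady-state WT against 0.545 and 0.608, 1.08 and 0.992 against 1.30 and 1.16 at 5 min, and 0.484 and 0.492 against 0.544 and 0.585 at 10 min. Its log2 differences were 0.14, 0.23 and 0.18 (SE 0.14, 0.15 and 0.16). It was the 1 such gene of 23 in the higher direction, against 8.79% of all genes. At 10 min Trappc9 passed the 0.5 RPKM limit through EloA null alone (mean 0.564, against 0.488 in WT). The same held for Wwox in steady state (0.538, against 0.418), so the limit favoured the higher direction for both. Peg13, an imprinted RNA within Trappc9 on the same strand, covers 1.00% of its span.

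Tbc1d5, on chromosome 17 (50733124 to 51181199), had 0.312 and 0.376 RPKM in steady-state WT and 0.368 and 0.353 in EloA null. At 5 min it had 0.820 and 0.994 in WT and 1.18 and 1.17 in EloA null, and at 10 min 0.300 and 0.395 against 0.359 and 0.428. Its libraries separated at 5 min, with a log2 difference of 0.35 (SE 0.16, limma adjusted p = 0.591), and overlapped otherwise. Gphn, on chromosome 12 (78217325 to 78684772), had 0.202 and 0.238 RPKM in steady-state WT and 0.209 and 0.223 in EloA null, 0.557 and 0.695 against 0.772 and 0.815 at 5 min, and 0.183 and 0.202 against 0.228 and 0.263 at 10 min. At 5 min its log2 difference was 0.31 (SE 0.20, limma adjusted p = 0.722). Both genes passed the 0.5 RPKM limit at 5 min alone.

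The more common direction of the genotype difference among the very long genes was not the same in the 3 conditions. All genes of a condition share its libraries, so the counts below are not independent evidence. No single difference passed the test. In steady state the mean was lower in EloA null for 18 of the 25 very long genes tested, against 43.5% of all genes, with a median log2 difference of -0.07 over the 25 and 0.03 over all. At 5 min it was lower for 7 of 28, against 59.2% of all genes, with medians of 0.09 and -0.06. At 10 min it was lower for 17 of 23, against 42% of all genes, with medians of -0.06 and 0.06. Other expressed genes over 200 kb had the lower mean in EloA null in 52.0% of cases in steady state, 30.7% at 5 min and 47.2% at 10 min. Both libraries of EloA null were below both of WT for 14 of the 25 genes in steady state, against 21.4% of all, and above for 2, against 32%. Of these, Atxn1 (below) passed the 0.5 RPKM limit through WT alone, and Wwox (above) through EloA null alone. At 5 min 4 of 28 were below, against 25%, and 8 above, against 15.4%. Gphn, Immp2l and Tbc1d5 were tested at 5 min and not in steady state, and over the 25 genes tested in both the 5-min counts were 7 with a lower mean, 4 below and 5 above. At 10 min 5 of 23 were below, against 21.8%, and 1 above, against 33.5%. The 1 above, Trappc9, passed the limit through EloA null alone. On the log2(RPKM + 0.1) scale 18, 7 and 16 of the genes had a difference below 0, and after median centring 23, 4 and 20 did. At 10 min this count was 9 of 23 without EloA null replicate 1 and 12 without WT replicate 2. At 5 min it was 12 of 28 without WT replicate 1 and 11 without EloA null replicate 1. In steady state it ran from 15 of 25 without WT replicate 2 to 22 without WT replicate 1. The genes above at 5 min were Dock1, Ehbp1, Gphn, Immp2l, Lrba, Ptprk, Tbc1d5 and Trappc9. Dock1 activates Rac, and Ptprk is a receptor tyrosine phosphatase.

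**Figure D5:**
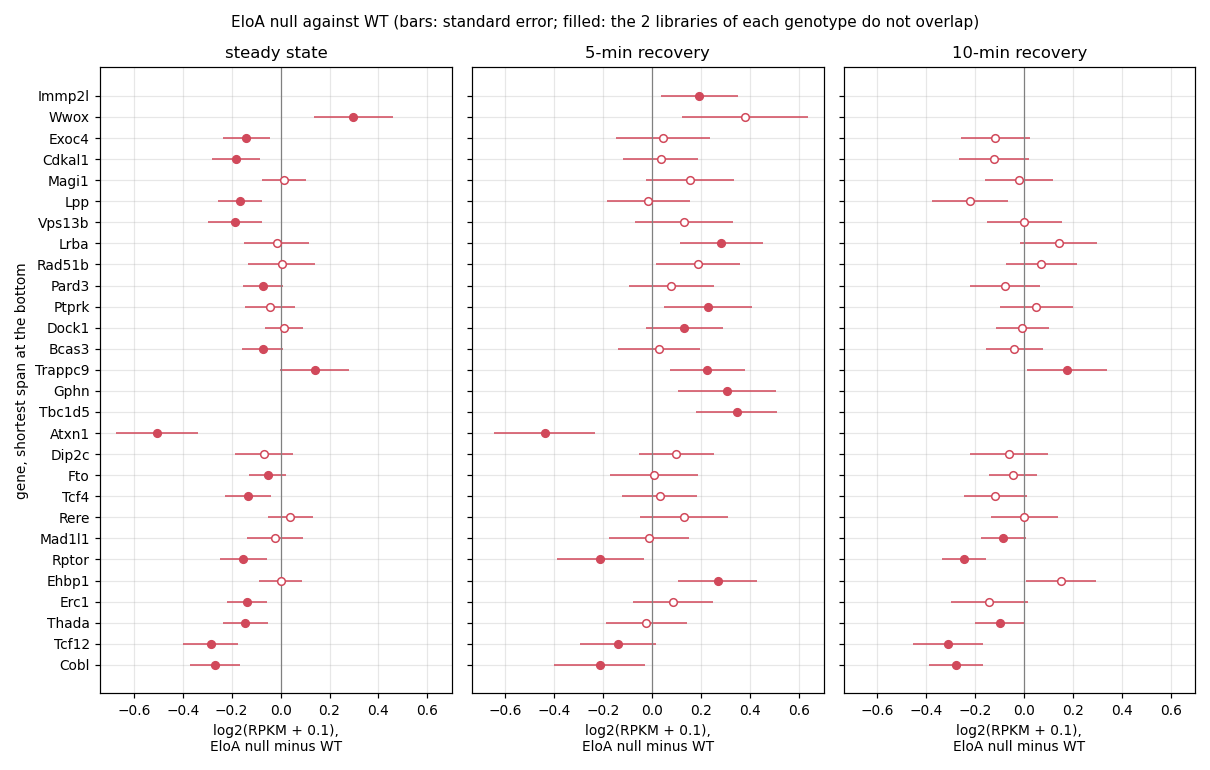
Difference of EloA null minus WT in log2(RPKM + 0.1) for the very long genes tested in each condition, with bars for the standard error, and filled points where the libraries of the genotypes do not overlap. Atxn1 lies furthest left in steady state and at 5 min, most points are left of 0 in steady state and right of 0 at 5 min, and 0 genes passed the test.

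By function, the 7 genes of membrane traffic were all higher in EloA null at 5 min, with a median ratio of 1.19, while 3 of 7 were higher in steady state and 5 of 7 at 10 min. The last 2 counts include Tbc1d5, which was below the 0.5 RPKM limit there, and the first of them Ehbp1 at a ratio of 1.00. Of all 28 genes, 8 were higher in steady state and 10 at 10 min. Over all genes tested, 43.5% and 42% had the lower mean in EloA null. Ehbp1, a protein of endocytic recycling, had a log2 difference of 0.27 (SE 0.16) at 5 min and Lrba, a protein of vesicle traffic, 0.28 (SE 0.17). The scaffold protein Erc1 had 0.08 (SE 0.16) and Exoc4 0.04 (SE 0.19). The 4 genes of mitochondria, cofactor synthesis and others (Bcas3, Dip2c, Gphn and Immp2l) were also higher at 5 min, with a median ratio of 1.11. Most members were higher at 5 min, 21 of the 28 in all, and among the other genes over 200 kb 30.7% were lower, so the 5-min counts do not set the groups apart. Whether the groups differed in any condition was not tested. Of the 6 genes of polarity, junctions and actin 4 were higher, and of the 4 transcription factors and cofactors 2 were, namely Tcf4 and Rere. None of these differences passed the test. Of the 4 expressed genes on the opposite strand within Bcas3, Bcas3os1 and Bcas3os2 had levels near its own (1.49 and 1.10 RPKM against 1.65 in steady-state WT, and 5.51 and 3.28 against 5.08 at 5 min).

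Whether the effect of EloA loss differed between recovery and steady state was tested in a fit of all 12 libraries. In that fit a scaling of a whole condition cancels, but for the 0.1 added to each RPKM. limma gave 0 of 25 very long genes an adjusted p under 0.05 for 5 min against steady state, and 0 at an unadjusted p under 0.05, against 7 of 8628 genes (0.0811%) and 481 genes (5.57%). The smallest adjusted p of the members was 0.933. For 10 min it gave 0 of 23 at either level, against 1 of 9825 genes (0.0102%) and 135 genes (1.37%). The 5-min difference was above 0 for 24 of the 25 genes, with a median of 0.15 on the log2 scale, against 35.1% of all genes tested and a median of -0.08. The exception was Rptor, at -0.06 (SE 0.14). Other genes over 200 kb had 74.7% above 0 and a median of 0.08, and genes under 10 kb had 33.7% and -0.14. The largest differences were those of Vps13b at 0.32 (SE 0.23), Lrba at 0.30 (SE 0.21) and Ptprk at 0.27 (SE 0.20), and that of Exoc4 was 0.18 (SE 0.19). At 10 min the difference was above 0 for 13 of 23 genes, against 53.3% of all genes. After median centring it was above 0 for 25 of 25 genes at 5 min, Rptor included, and for 8 of 23 at 10 min, where the count with 1 library left out ran from 4 (EloA null 10-min replicate 2) to 21 (WT 10-min replicate 2). Each of the 25 5-min differences uses the same 8 libraries, so their common sign is not independent evidence. The 5-min contrast also sets the 5-min level against steady state in each genotype, and these values chose the list. Nothing is therefore read from the 5-min count and median of the members beside those of other genes.

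Values of the 5 most transcribed other genes over 200 kb are given for scale. Tns3, which encodes a focal adhesion protein, had 10.1 and 9.83 RPKM in steady-state WT, 13.4 and 14.7 at 5 min and 10.0 and 9.86 at 10 min. Its 5-min ratio in WT was 1.41, and those of Tead1, Trps1, Meis2 and Med13l, which encode nuclear factors, were 1.53, 1.74, 1.98 and 1.46. These genes span 205 to 236 kb, near the span of Cobl, and their ratios lay on both sides of that of Cobl. In EloA null the 5 ratios were 1.37, 1.46, 2.03, 1.97 and 1.25.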

How the data were processed

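Bru-seq libraries of 6 groups were used, 2 for each group and 12 in all. The authors aligned paired-end reads to mm10 with bowtie2, kept uniquely aligned reads, counted them over whole RefSeq genes with featureCounts and deposited values normalized with edgeR as RPKM, 1 table per condition. The submitters' processing notes name featureCounts 1.6.1 and Bowtie2 2.3.4.3. The series' 16 samples of protein binding were left out. BrU-labelled Drosophila RNA was spiked in, and the deposited values carry no scaling to it that could be found.

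Library sizes and counted lengths were worked out from the steps between RPKM values: 11878 of 11932 expressed genes with a known span (99.5%) gave whole reads (tolerance 0.02) in all 12 libraries, against 0 of 996 control searches in which libraries were mixed between genes. Each library is thus scaled to its own total. Depth ran from 9857527 to 28547356 reads. Because the authors' unit is RPKM, no count test was run. Symbols were matched to RefSeq genes of GRCm38.p6 directly for 24448 genes and through an older symbol for 407, and 129 had no match.

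Genotypes were compared within a condition with limma 3.58.1 (R 4.3.3, trend) on log2(RPKM + 0.1), over genes with a mean RPKM above 0.5 in WT or EloA null, with Benjamini-Hochberg adjustment over all of them, and checked on simulated data. Recovery and steady state were compared without a test, as ratios of mean RPKM. The 2 libraries of a group are described as duplicates, and separate cultures are not stated, so p-values measure the spread between these libraries. An exact permutation test of 2 against 2 libraries cannot give a two-sided p below 0.333, so none was run.

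The genes and the lists were chosen with earlier results of these data known. Values in every library were to be given for Exoc4 and for the members with the highest and lowest steady-state level, ratio to steady state and ratio of EloA null to WT, and for the 5 most transcribed other genes over 200 kb. The finer bins of span were added after seeing the data. The alternatives were other pseudocounts, filters and scalings, a replicate block, a fit of all 12 libraries, robust variances and leaving out each library.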

Additional observations from a re-analysis of the deposited data

How the results depend on the processing

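In 70 fits, main ones included, 0 of the very long genes had an adjusted p under 0.05 (limma). Of 568 values under alternatives, 503 were labelled as the same and 65 as moved. Some medians given below changed sign, so this tally is no measure of stability. The median of the very long genes for the 10-min difference of effects was 0.01 and became -0.03 with median centring. Genes over 1.5-fold higher and lower in EloA null numbered 3843 and 1854 (steady state), 2985 and 3790 (5 min) and 4434 and 2228 (10 min) with no filter on low values. With a mean RPKM over 1 they numbered 519 and 132, then 309 and 333, and lower 167 at 10 min, and 0 very long genes were lower in steady state, since Atxn1 was below that filter. All genes with an adjusted p under 0.05 numbered 132, 532 and 264 in a fit of all 12 libraries and 81, 29 and 26 with robust variances (steady state, 5 min, 10 min). They numbered 2 at 5 min and 5 at 10 min with a pseudocount of 0.5, and at 10 min 5 with a pseudocount of 1, 12 with median centring and 6 with quantile normalization. The cause was not tested. The steady-state median of the very long genes was -0.15 (log2) with quantile normalization. For the difference of effects the number was 97 (5 min) and 54 (10 min) with no filter, and 1 (5 min) with a pseudocount of 1. Same-numbered libraries deviated together weakly (correlation 0.101, 0.119 and 0.103 in the 3 conditions), with 2 pairs in each, so they were taken to share only a number. With the replicate number as a block, 128 genes passed at 5 min, 0 in steady state and 0 at 10 min, 2 for the 5-min difference of effects and 0 for the 10-min one, none of them a very long gene. At an unadjusted p under 0.05 the block moved the counts from 2083, 846 and 2098 to 2204, 1250 and 3018. The median 5-min ratio in WT and EloA null was 2.98 and 4.06 when divided by that of genes under 10 kb, 3.64 and 4.66 when divided by that of all genes, 2.21 and 2.59 over the 23 members expressed in every condition, and 2.21 and 2.55 with a pseudocount of 0.1. The 10-min ratio was 0.814 and 0.816 when divided by that of genes under 10 kb. Without Exoc4, added after seeing the data, the ratios were 2.29 and 2.71 at 5 min.

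With each library left out in turn, genes with an adjusted p under 0.05 ranged from 0 to 60 at 5 min, 0 to 33 at 10 min, 0 to 20 for the 5-min difference of effects and 0 to 1 for the 10-min one. Genes over 1.5-fold higher ranged from 527 to 762 and lower from 513 to 983 at 5 min, and higher from 787 to 1468 at 10 min. Very long genes past 1.5-fold ranged from 0 to 1, lower in steady state and either way at 5 min. Their median genotype difference stayed below 0 in steady state (-0.13 to -0.04) and above 0 at 5 min (0.03 to 0.17), and changed sign at 10 min, where it ran from -0.14 to 0.03, above 0 without EloA null replicate 1. For the 10-min difference of effects it ran from -0.06 to 0.11. The median 5-min ratio ranged from 2.28 to 2.43 in WT and from 2.59 to 2.70 in EloA null.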

Other observations

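Among the genes of low level, Prkg1, a cGMP-dependent kinase, had a ratio of 10-min recovery to steady state of 3.14 in WT and 4.06 in EloA null, above those of the 28 genes. Cstf2t, a gene of the opposite strand within it, had 2.55 RPKM in steady-state WT, 5.89 at 5 min and 6.18 at 10 min, and whether its reads entered the value of Prkg1 was not tested.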
